A study of Bos taurus with 30 samples.

Results

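The 6 genes followed here belong to the endothelin, nitric oxide and angiotensin systems, and were measured in the bovine corpus luteum after prostaglandin F2α (PGF2α). They are EDN1, ECE1, EDNRA, EDNRB, NOS3 and AGTR1. They were looked up by gene symbol in the array's annotation, a rule that uses no measured value, although the set was proposed with earlier results of these data known. All 6 were found, with 8 probe sets between them. These are 6 of the 9155 genes and 8 of the 24016 probe sets tested. ECE1 had 3 probe sets, of which the brightest represented the gene, and the other genes had 1 probe set each.

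Corpora lutea of 30 Angus crossbred heifers were measured on the Affymetrix Bovine Genome Array, 1 array per heifer, and the series compared an early with a mid-cycle gland. There were 6 groups of 5 heifers, assigned completely at random: day 4 of the estrous cycle at 0 h, 4 h and 24 h, and day 11 at 0 h, 4 h and 24 h. The 0 h groups were the saline controls, and the 4 h and 24 h groups had been injected with PGF2α. No saline group at 4 h or 24 h was analysed here, so the effect of PGF2α and the passage of up to 24 h of the cycle cannot be told apart. The RNA was total RNA of whole luteal tissue, in which fewer cells of a type and less RNA per cell cannot be told apart. Ages are not given in the sources used here.

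The corpus luteum is the gland that forms from the ovulated follicle and secretes progesterone, and it is densely supplied with blood vessels. PGF2α from the uterus ends its life at the close of the cycle, a process called luteolysis, but the early gland does not regress after a single injection. Endothelin 1 is a peptide made mainly by endothelial cells. It is cut from its precursor by an endothelin converting enzyme and acts through receptors A and B, which couple to calcium release; it constricts vessels and has been described as an inhibitor of luteal progesterone secretion. Nitric oxide, made from arginine by nitric oxide synthases, relaxes vessels through cyclic GMP. Angiotensin II constricts vessels through the type 1 receptor and is also made locally in the ovary.

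Values are log2 RMA signals, on which a difference of 1 is a doubling. RMA is a method that corrects background, normalizes arrays to each other and combines the probes of a probe set. Differences are given ± SE with limma p-values adjusted by the Benjamini-Hochberg method over all 24016 probe sets, and a gene was called when its adjusted p was under 0.05. Group values are mean ± SD with n = 5, and the number of arrays limits their precision.

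The steroidogenic markers STAR, CYP11A1 and HSD3B1 were brighter than 99.7%, 99.8% and 99.8% of probe sets (mean over the 30 arrays), and the endothelial markers CDH5 and PECAM1 were brighter than 88.7% and 82.3%. Every array had its nearest array in its own group, with correlations within groups between 0.978 and 0.994. Replicate 1 of the day 11, 4 h group stood apart in its EF1A control probe sets, with a 3′ minus 5′ difference of -1.40 against -2.46 to -2.28 in the rest of its group, and had a limma weight of 0.318 where 1 is the average. On the first principal component replicate 1 of the day 4, 24 h group scored 45.7, within the 42.1 to 50.7 of the untreated day 4 glands. Results that rest on these arrays are given without them where a call changed.

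**Figure D1:**
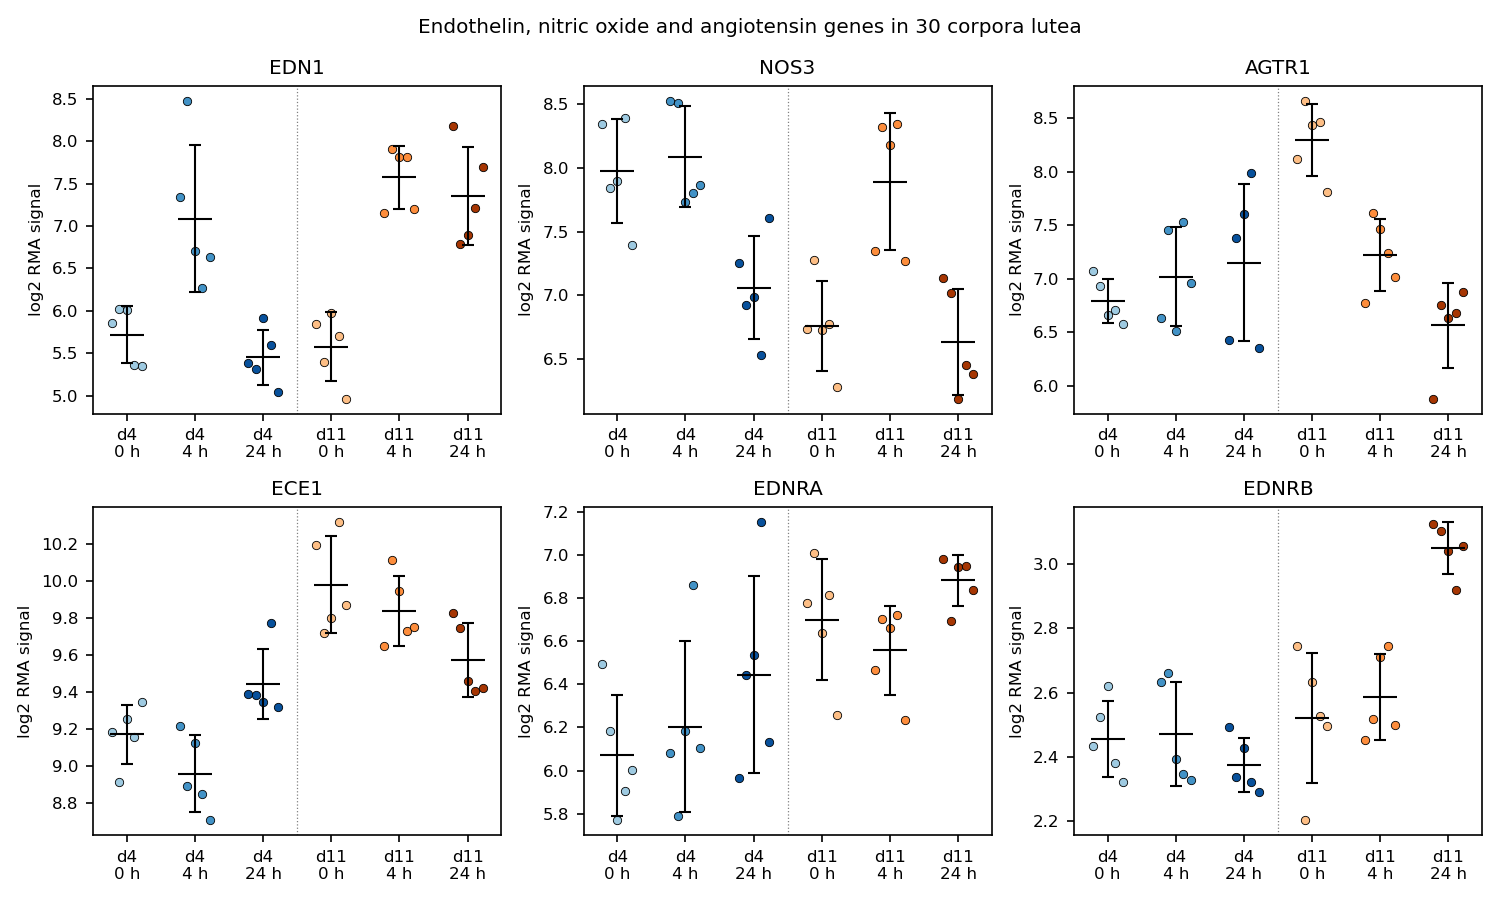
Log2 RMA signal of the 6 genes (vertical axes, a different range in each panel) in each of the 6 groups (horizontal axis, d4 and d11 for day 4 and day 11). Points are single heifers and bars are mean ± SD (n = 5). EDN1 averaged 5.45 to 5.72 in both 0 h groups and at 24 h on day 4, and its lowest array in the other groups read 6.27. AGTR1 read at least 7.81 on every array of the day 11, 0 h group.

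EDN1 (Entrez Gene 281137), the gene of the endothelin 1 precursor, rose within 4 h of PGF2α on both days. At 24 h it stood above the 0 h level on day 11 and near it on day 4. In the day 4 gland the 5 arrays at 0 h read 5.86, 6.02, 6.01, 5.37 and 5.35 (5.72 ± 0.34). At 4 h they read 7.34, 8.47, 6.71, 6.27 and 6.63 (7.08 ± 0.87), and at 24 h 5.39, 5.32, 5.91, 5.60 and 5.05 (5.45 ± 0.32). All arrays at 4 h were above all arrays at 0 h and at 24 h, and the 4 h arrays were the most spread, with replicate 2 the highest of any array in the series. The difference at 4 h was 1.36 ± 0.30, or 2.57-fold (adjusted p = 0.0072). Without replicate 2 of the 4 h group it was 1.01 (adjusted p = 0.025). At 24 h EDN1 was -0.27 ± 0.30 from the 0 h level (adjusted p = 0.76) and 1.63 below the 4 h level, a 3.10-fold fall (adjusted p = 0.00042).

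On day 11 the 0 h arrays read 5.84, 5.40, 5.98, 5.71 and 4.97 (5.58 ± 0.40). At 4 h they read 7.15, 7.90, 7.81, 7.81 and 7.19 (7.57 ± 0.37), and at 24 h 8.17, 6.78, 6.90, 7.21 and 7.70 (7.35 ± 0.58). Neither treated group overlapped the 0 h group, while the treated groups overlapped each other. EDN1 rose by 1.99 ± 0.30 at 4 h (3.98-fold, adjusted p = 2.3e-05) and by 1.77 ± 0.30 at 24 h (3.42-fold, adjusted p = 3.8e-05). From 4 h to 24 h it changed by -0.22 (adjusted p = 0.69). The untreated glands of the 2 days differed by -0.14 ± 0.30 (95% interval -0.77 to 0.48, adjusted p = 0.77).

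The response at 4 h was 0.63 ± 0.43 greater on day 11 than on day 4, which did not pass the test (interaction, adjusted p = 0.64, 95% interval -0.25 to 1.52). The response at 24 h was 2.04 ± 0.43 greater on day 11 (interaction, 4.12-fold, adjusted p = 0.00074). In order of level, the groups ran day 11, 4 h, then day 11, 24 h and day 4, 4 h, whose values overlapped one by one. They were followed after a gap by day 4, 0 h, day 11, 0 h and day 4, 24 h, which overlapped in the same way.

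**Figure D2:**
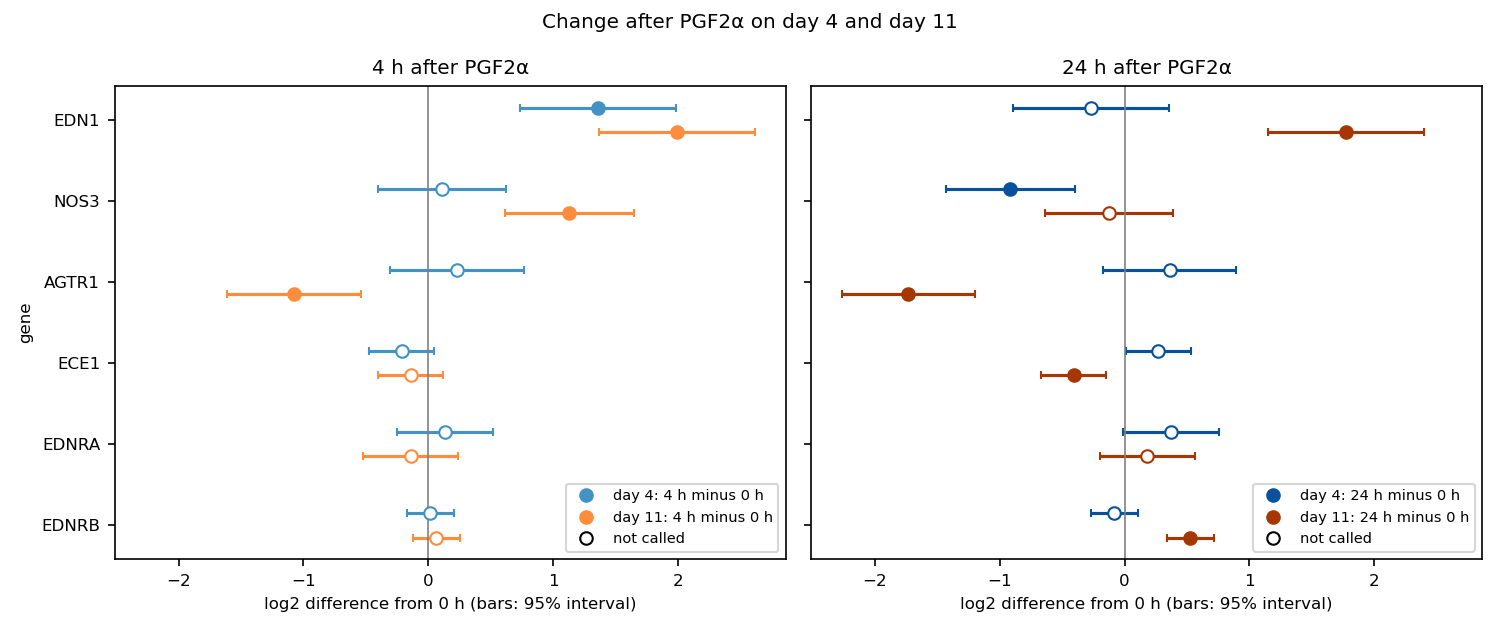
Log2 difference from the 0 h group of the same day (horizontal axis, the same scale in both panels) for each gene (vertical axis) at 4 h (left) and 24 h (right). Points are fitted differences, bars their 95% intervals, blue for day 4 and orange or brown for day 11, and open points were not called. EDN1 at 24 h stood at -0.27 on day 4 and 1.77 on day 11, and AGTR1 at 0.36 and -1.73.

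ECE1 (281133), the enzyme that cuts the endothelin precursor to the active peptide, was higher in the untreated day 11 gland and its 24 h responses differed between the days. The probe set that represented it read 9.19, 8.92, 9.26, 9.16 and 9.35 at 0 h on day 4 and 10.20, 9.72, 9.80, 10.32 and 9.87 at 0 h on day 11. No day 11 array overlapped the day 4 arrays, and the difference was 0.81 ± 0.13, or 1.75-fold (adjusted p = 1.1e-05). After PGF2α the day 4 means were 8.96 ± 0.21 at 4 h and 9.44 ± 0.19 at 24 h, a rise of 0.49 between the treated groups (adjusted p = 0.0086) with neither passing the test against 0 h (adjusted p = 0.49 and 0.26). The day 11 means were 9.84 ± 0.19 at 4 h and 9.57 ± 0.20 at 24 h. The fall by 0.41 at 24 h passed the test (adjusted p = 0.014), although the groups overlapped. Without day 11, 0 h replicate 4 it was -0.32 (adjusted p = 0.060). The 24 h interaction was -0.68 ± 0.18 (adjusted p = 0.0058).

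The second and the dimmest ECE1 probe sets, with means of 8.54 and 7.51 over the 30 arrays against 9.49 in the brightest, shared the 24 h interaction, at -0.62 ± 0.18 (adjusted p = 0.011) and -0.56 ± 0.18 (adjusted p = 0.023). They also shared the rise from 4 h to 24 h on day 4, by 0.42 (adjusted p = 0.019) and 0.41 (adjusted p = 0.024). They differed on the untreated glands: the day 11 level was 0.41 ± 0.12 above day 4 in the first (adjusted p = 0.010) and 0.17 ± 0.13 in the second, which was not called (adjusted p = 0.33). The fall at 24 h on day 11 was called in neither (-0.27, adjusted p = 0.10, and -0.31, adjusted p = 0.063). The size of the stage difference in ECE1 therefore depended on the probe set, from 0.17 to 0.81.

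**Figure D3:**
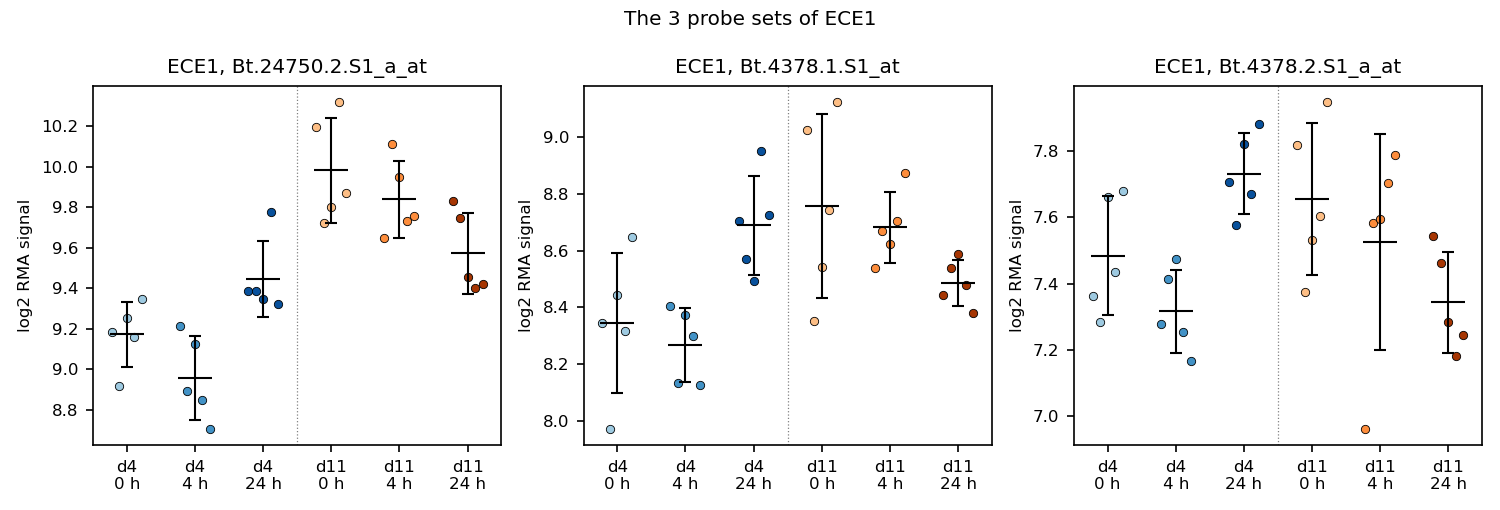
Log2 RMA signal of the 3 ECE1 probe sets (vertical axes, a different range in each panel) by group (horizontal axis). Points are single heifers and bars are mean ± SD (n = 5). On day 4 the 24 h arrays lay above the 4 h arrays in all 3 panels, while the gap between the 0 h groups was 0.81, 0.41 and 0.17 from left to right.

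EDNRA (281749), the A receptor, which is carried by contractile cells of vessel walls among others, was called in 1 of the 9 comparisons. It read 6.49, 6.18, 5.77, 5.91 and 6.00 at 0 h on day 4 (6.07 ± 0.28) and 6.78, 7.01, 6.64, 6.81 and 6.26 at 0 h on day 11 (6.70 ± 0.28). The highest day 4 array stood above the lowest day 11 array. The day 11 level was 0.63 ± 0.19 higher, or 1.55-fold (adjusted p = 0.0094). After PGF2α the day 4 means were 6.20 ± 0.40 and 6.44 ± 0.46 at 4 h and 24 h, and the day 11 means 6.56 ± 0.21 and 6.88 ± 0.12. None of these passed the test against 0 h: the differences were 0.13 and 0.37 on day 4 and -0.14 and 0.18 on day 11, with adjusted p between 0.30 and 0.88. The 95% intervals of these 4 differences lay within -0.52 to 0.76. In the order of levels each group overlapped the next, from day 11, 24 h down to day 4, 0 h.

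EDNRB (281750), the B receptor, which endothelial cells carry and which also clears endothelin, had one of the dimmest probe sets on the array: only 3.26% of probe sets had a lower mean over the 30 arrays. No detection calls were used, so a level near background cannot be told apart from a low level of transcript. The means of the other 5 groups lay between 2.37 ± 0.08 and 2.59 ± 0.13. The day 11, 24 h arrays read 3.13, 3.10, 3.04, 2.92 and 3.06 (3.05 ± 0.08), above all 25 of the other arrays, the highest of which read 2.75. The difference from day 11, 0 h was 0.53 ± 0.09, or 1.44-fold (adjusted p = 4.4e-05), and from day 11, 4 h it was 0.46 ± 0.09 (adjusted p = 0.00032). On day 4 the 24 h group was -0.08 ± 0.09 from 0 h (adjusted p = 0.76), and the interaction at 24 h was 0.61 ± 0.13 (adjusted p = 0.00080). In the same group the macrophage markers were highest: 5 of 9 were called higher than at 0 h, and their log2 summed level ran from 13.0 to 13.7 against 11.4 to 12.3 at 0 h. T and NK cell markers were also higher, 6 of 8, as were 3 of 6 neutrophil markers, led by S100A12 at 5.97. The part of these cells in the EDNRB result was not tested.

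NOS3 (287024), the endothelial nitric oxide synthase, was higher in the untreated day 4 gland than in the untreated day 11 gland, rose at 4 h on day 11, and stood low in both 24 h groups. The day 4, 0 h arrays read 8.34, 7.84, 7.90, 8.39 and 7.40 (7.98 ± 0.41) and the day 11, 0 h arrays 6.73, 7.28, 6.73, 6.78 and 6.28 (6.76 ± 0.35). These did not overlap, and the day 11 level was lower by 1.22 ± 0.25, a 2.32-fold difference (adjusted p = 0.00033). At 4 h on day 11 the arrays read 7.34, 8.32, 8.18, 8.34 and 7.27 (7.89 ± 0.54). Only the lowest of them lay within the range of the 0 h group, and the rise was 1.13 ± 0.25, or 2.19-fold (adjusted p = 0.0017). At 24 h they read 7.13, 7.02, 6.19, 6.45 and 6.38 (6.64 ± 0.42), -0.12 from 0 h (adjusted p = 0.78) and lower than at 4 h by 1.25, with no overlap (2.38-fold, adjusted p = 0.00037).

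On day 4 NOS3 read 8.52, 8.51, 7.73, 7.80 and 7.87 at 4 h (8.09 ± 0.39), 0.11 ± 0.25 from 0 h (adjusted p = 0.93). At 24 h it read 7.25, 6.92, 6.98, 6.53 and 7.61 (7.06 ± 0.40), all below the 4 h arrays. The fall from 4 h to 24 h was by 1.03 ± 0.25 (2.04-fold, adjusted p = 0.0051). The fall from 0 h, by 0.91 ± 0.25 (1.88-fold), passed narrowly (adjusted p = 0.028). It did not pass when the fit held only the arrays of that comparison (adjusted p = 0.071), nor without any one of day 4, 0 h replicates 1, 3 or 4 (adjusted p = 0.088, 0.056 and 0.091) or day 4, 24 h replicates 2, 3 or 4 (adjusted p = 0.079, 0.058 and 0.13). The responses of the 2 days were not shown to differ: the interaction was 1.02 ± 0.35 at 4 h (adjusted p = 0.19) and 0.79 ± 0.35 at 24 h (adjusted p = 0.12). Day 4, 4 h, day 4, 0 h and day 11, 4 h were the highest groups and overlapped, and day 4, 24 h, day 11, 0 h and day 11, 24 h the lowest, also overlapping. At the step between them, 0.83, the values of day 11, 4 h and day 4, 24 h still overlapped.

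AGTR1 (281607), the type 1 receptor of angiotensin II, was highest in the untreated day 11 gland and fell there after PGF2α. At 0 h the day 4 arrays read 7.08, 6.93, 6.66, 6.71 and 6.58 (6.79 ± 0.21) and the day 11 arrays 8.12, 8.66, 8.43, 8.47 and 7.81 (8.30 ± 0.34). The day 11 level was 1.50 ± 0.26 higher, or 2.84-fold, without overlap (adjusted p = 4.3e-05). On day 11 the 4 h arrays read 6.77, 7.61, 7.46, 7.24 and 7.02 (7.22 ± 0.34) and the 24 h arrays 5.88, 6.75, 6.63, 6.68 and 6.87 (6.56 ± 0.39). All of these lay below every 0 h array. The fall was by 1.07 ± 0.26 at 4 h (2.11-fold, adjusted p = 0.0039) and by 1.73 ± 0.26 at 24 h (3.32-fold, adjusted p = 6.1e-06). The step from 4 h to 24 h, -0.66 ± 0.26, did not pass (adjusted p = 0.070), and passed without day 11, 4 h replicate 1, the array with the unusual control probe sets (-0.77, adjusted p = 0.045).

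On day 4 AGTR1 read 6.64, 7.45, 6.51, 7.53 and 6.96 at 4 h (7.02 ± 0.46) and 6.42, 7.39, 7.60, 7.99 and 6.35 at 24 h (7.15 ± 0.73). Both groups overlapped the 0 h group and neither passed the test (0.23, adjusted p = 0.83, and 0.36, adjusted p = 0.55). The 24 h arrays were the most spread of any AGTR1 group, with 3 from 7.39 to 7.99 and 2 at 6.42 and 6.35. The interaction at 24 h was -2.09 ± 0.37 (adjusted p = 9.9e-05). At 4 h it was -1.30 ± 0.37 and did not pass (adjusted p = 0.081), although it did with only the arrays of that comparison (adjusted p = 0.037). The day 11, 0 h arrays lay above every array of the other groups except day 4, 24 h replicate 4 (7.99 against a lowest 0 h array of 7.81). Below them each group in the order of levels overlapped the next.

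The share of the 6 genes called was set beside that of all genes in each comparison. On day 4, 1 of the 6 genes was called at 4 h (EDN1, higher), where 5.28% of all genes were called, 3.29% higher and 1.99% lower. At 24 h on day 4, 1 was called (NOS3, lower) against 7.76% of all genes, 3.03% higher and 4.73% lower. On day 11, 3 were called at 4 h (EDN1 and NOS3 higher, AGTR1 lower) against 23.2%, with 10.1% higher and 13.1% lower. At 24 h on day 11, 4 were called (EDN1 and EDNRB higher, AGTR1 and ECE1 lower) against 37.9%, with 17.9% higher and 20.0% lower. Between 4 h and 24 h, 3 were called on day 4 (ECE1 higher, EDN1 and NOS3 lower) against 20.0%, with 10.2% higher and 9.84% lower. Over the same step on day 11, 2 were called (EDNRB higher, NOS3 lower) against 30.6%, with 16.2% higher and 14.3% lower. In the untreated glands 4 differed between the days (AGTR1, ECE1 and EDNRA higher on day 11, NOS3 lower) against 44.5%, with 17.9% higher and 26.5% lower. The counts in the comparisons where a large share of all genes changed are thus a description of these genes and set them apart from no other list.

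The interaction at 24 h was called for 4 of the 6 genes (EDN1 and EDNRB higher on day 11, AGTR1 and ECE1 lower) against 29.8% of all genes, with 14.8% higher and 15.0% lower. The interaction at 4 h was called for none of the 6 by limma, against 1.40% of all genes, 0.939% higher and 0.459% lower. At an unadjusted p under 0.05, 2 of the 6 (NOS3 and AGTR1) and 13.4% of all genes passed. The comparisons with 0 h share the control arrays of their day, and the interactions share them in turn. In each comparison the median difference over all genes lay between -0.04 and 0.01.

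EDN1 and NOS3 are both transcribed in endothelial cells, so their levels were set beside the mean log2 signal of 16 measured endothelial markers. The marker mean was 7.64 ± 0.17, 7.85 ± 0.13 and 7.61 ± 0.05 at 0 h, 4 h and 24 h on day 4, and 8.12 ± 0.11, 8.21 ± 0.18 and 7.81 ± 0.07 on day 11. Of the 16 markers, 12 were higher and 1 lower on day 11 than on day 4 at 0 h. On day 4, 4 rose and 1 fell at 4 h (8 and 1 at an unadjusted limma p under 0.05). At 24 h on day 4, 0 passed, whether limma's p was adjusted or not. On day 11, 5 rose and 2 fell at 4 h and 1 rose and 9 fell at 24 h. The marker list thus stood higher in the untreated day 11 gland, in which NOS3 was lower, and it fell at 24 h on day 11, when EDN1 was raised.

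Relative to this mean, EDN1 was higher by 1.15 at 4 h on day 4, by 1.91 at 4 h on day 11 and by 2.09 at 24 h on day 11, in each case with no overlap between the 5 treated and the 5 control arrays (exact two-sided permutation test, p = 0.0079, the smallest that 5 against 5 can give, adjusted p = 0.022 over 28 tests). NOS3 relative to the markers was -1.70 on day 11 against day 4 at 0 h, -0.88 at 24 h on day 4 and 1.04 at 4 h on day 11, with the same p and again no overlap. For EDN1 the relative difference between the days at 0 h was -0.62 and did not pass (exact permutation test, adjusted p = 0.056). It passed with quantile normalization (adjusted p = 0.042) and with the median of the list (adjusted p = 0.033). The relative fall of NOS3 from 4 h to 24 h was by 0.79 on day 4 (exact permutation test, adjusted p = 0.040, and 0.051 without dim markers) and by 0.85 on day 11 (adjusted p = 0.056, which did not pass, and 0.042 with quantile normalization and 0.033 with the median of the list). Between 0 h and 4 h on day 11, where the marker mean moved by 0.09, the relative EDN1 and NOS3 differences were 1.91 and 1.04, against 1.99 and 1.13 by themselves. The NOS3 fall from 4 h to 24 h on day 11 was 0.85 against 1.25. Its difference between the days at 0 h was -1.70 against -1.22. The part of endothelial cell content in the EDN1 and NOS3 results was not tested. Markers of other cells were set beside EDN1. Of 6 neutrophil markers, 1 was higher at 4 h on day 4 and 3 at each time on day 11. Their log2 summed level ran from 8.91 to 10.4 at 0 h, 9.97 to 11.2 at 4 h and 9.11 to 10.4 at 24 h on day 4. On day 11 it ran from 8.48 to 9.43, 9.77 to 12.1 and 11.2 to 12.9. Of 9 macrophage markers, 1 was higher at 4 h on each day and 5 at 24 h on day 11, and CD14 was higher in all 3 comparisons (by 1.06, 1.28 and 2.60, adjusted p = 0.016, 0.00088 and 9.9e-09). The macrophage summed level ran from 10.3 to 10.4 at 0 h, 10.4 to 11.7 at 4 h and 10.1 to 11.5 at 24 h on day 4. In the same order it ran from 11.4 to 12.3, 11.6 to 13.5 and 13.0 to 13.7 on day 11. At 24 h on day 4 no macrophage marker was called, and 3 of 9 were higher at an unadjusted limma p under 0.05. Of 8 T and NK cell markers, 6 were higher at 24 h on day 11. The part of these cells in the EDN1 result was not tested.

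**Figure D4:**
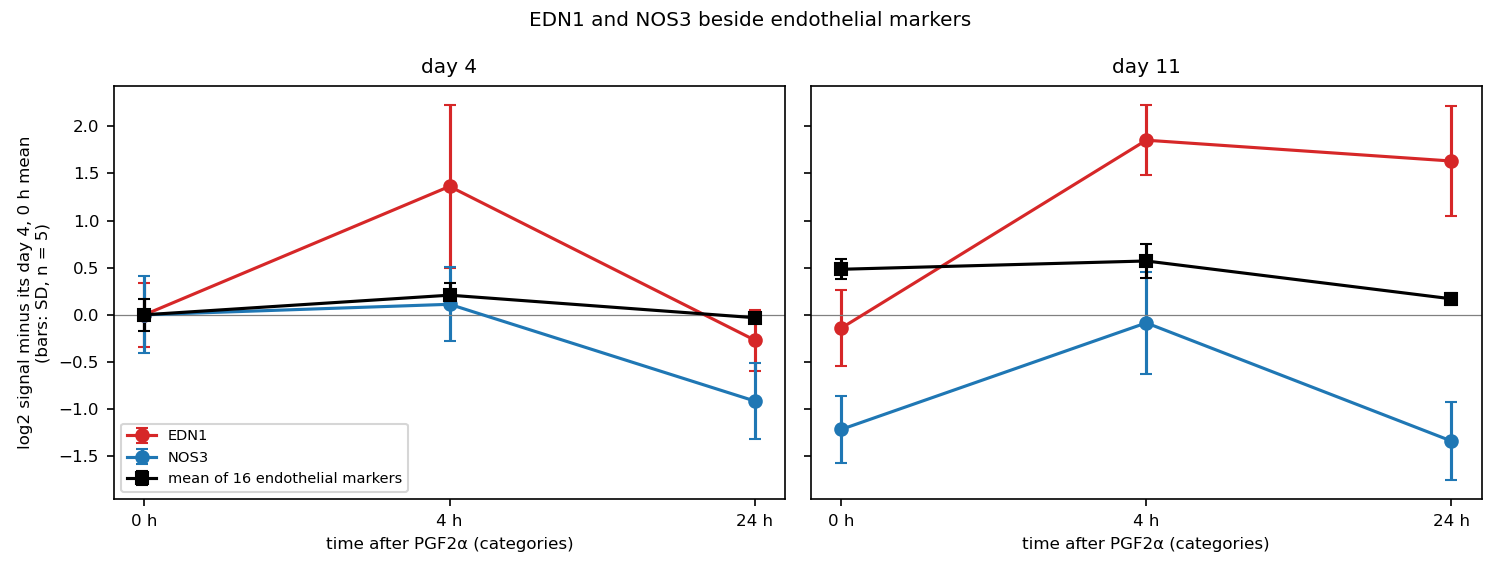
EDN1 (red), NOS3 (blue) and the mean of 16 endothelial markers (black squares) as log2 signal minus the day 4, 0 h mean of each (vertical axis), against time after PGF2α as categories (horizontal axis), on day 4 (left) and day 11 (right). Symbols are means and bars SD (n = 5 heifers). The marker mean moved by no more than 0.31 from the 0 h level of its day, while EDN1 moved by up to 1.99 and NOS3 by up to 1.13.

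Receptors were set beside their candidate cells in the same way. The pericyte and smooth muscle list (12 measured) had 2 markers higher and 4 lower on day 11 than on day 4 at 0 h, and EDNRA relative to its mean was 0.79 higher on day 11 (exact permutation test, adjusted p = 0.022). From 4 h to 24 h on day 11 relative EDNRA rose by 0.64 without overlap (same test, adjusted p = 0.022). None of its relative differences from 0 h passed (adjusted p from 0.092 to 0.33). Against the median of the list all did (adjusted p from 0.020 to 0.033), at -0.50 and 0.69 on day 4 and -0.58 and 0.54 on day 11 (4 h and 24 h). At 0 h 5 of 9 macrophage markers were also higher on day 11, as were 3 of 10 fibroblast markers, with 5 lower. The part of these cells in the EDNRA result was not tested. The steroidogenic list (11 measured) had 10 of 11 markers lower at 24 h on day 11, with a mean of 10.63 ± 0.27 against 11.81 ± 0.09 at 0 h. AGTR1 relative to this mean was 1.24 higher on day 11 than on day 4 at 0 h (exact permutation test, adjusted p = 0.022). Its fall at 24 h on day 11 was 0.55 greater than that of the mean and did not pass (exact permutation test, adjusted p = 0.051, and 0.042 with quantile normalization). Set against the median of the list in place of its mean, the relative value was 0.19 in the opposite direction. At 4 h on day 11, when 4 of 11 steroidogenic markers were lower, the relative difference of AGTR1 was -0.64 (exact permutation test, adjusted p = 0.056), and it passed with quantile normalization (adjusted p = 0.042) and with the median of the list (-0.91, adjusted p = 0.020). Of 16 endothelial markers, 12 were higher and 1 lower on day 11 than on day 4 at 0 h. On day 11, 5 of these markers rose and 2 fell at 4 h, and 1 rose and 9 fell at 24 h. The part of a loss of steroidogenic or endothelial cells, or of their RNA, in the fall of AGTR1 was not tested.

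Within groups, the deviations of the 30 arrays from their group means were compared in 33 pairings of the 6 genes and 3 marker means. EDN1 and EDNRB deviated together (Pearson r = 0.62 and Spearman rho = 0.65, permutations within groups, p = 0.00075 and 0.00063, adjusted p = 0.025 and 0.021). Without the 2 arrays farthest from the median in EDN1, r was 0.56. EDNRB lies so near the bottom of the scale that its deviations cannot be told apart from background. EDNRA and AGTR1 also did (r = 0.63 and rho = 0.59, permutation p = 0.0017 and 0.0028, adjusted p = 0.029 and 0.047), with r = 0.49 without the 2 arrays farthest in EDNRA. EDNRA followed the pericyte mean at r = 0.48 (rho = 0.48, permutation p = 0.0045 and 0.0099), which passed the adjustment for r (adjusted p = 0.038) and not for rho (adjusted p = 0.088). It ran against the steroidogenic mean at r = -0.39 and rho = -0.45 (permutation p = 0.0027 and 0.013), with the same outcome (adjusted p = 0.030 and 0.088). AGTR1 and the steroidogenic mean gave r = 0.09 and rho = -0.12 (permutation p = 0.63 and 0.55, adjusted p = 0.84 and 0.82). With the endothelial mean AGTR1 gave r = 0.13 and rho = 0.13 (permutation p = 0.42 and 0.48, adjusted p = 0.69 and 0.82). EDN1 and NOS3 gave r = 0.42 and rho = 0.40, which did not pass (permutation p = 0.030 and 0.046, adjusted p = 0.17 and 0.22). NOS3 and the endothelial mean gave r = 0.50 and rho = 0.50, which did not pass either (permutation p = 0.015 and 0.012, adjusted p = 0.10 and 0.088).

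Over the 30 arrays, differences between groups included, the genes whose signal followed EDN1 most closely were LHFPL2, the macrophage chemokine CCL3 and the monocyte chemokine CCL2 (Pearson r = 0.89 for each). CCL2 read 9.06, 11.29 and 8.17 on average at 0 h, 4 h and 24 h on day 4, and 8.98, 11.78 and 12.56 on day 11. For EDNRB they were FABP4 (r = 0.89), RNF130 and the scavenger receptor MSR1 (both r = 0.86), and FABP4 rose from 4.64 at 0 h to 8.78 at 24 h on day 11. For NOS3 they were RBBP8, a DNA repair factor (r = 0.86), MAK16 (r = 0.83) and EIF4E, the cap-binding translation factor (r = 0.82). For AGTR1 they were COLEC11, RAPGEF2 (both r = 0.80) and KLHL25 (r = 0.79), for ECE1 NFE2L1 (r = 0.92), P4HTM (r = 0.90) and FAM234A (r = 0.89), and for EDNRA GABBR1 (r = 0.84), CST3 (r = 0.83) and EGFLAM (r = 0.81). Over the 6 group means alone the closest were PIGF for EDN1, TSPAN4 for ECE1, PIK3IP1 for EDNRA, FABP4 for EDNRB, RBBP8 for NOS3 and ARHGEF3 for AGTR1, with r between 0.98 and 1.00. These correlations share the 6 groups and the same arrays, and describe likeness of pattern in these data.

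Of 7 further endothelin genes measured (12 listed), none was called by limma at 4 h or 24 h on day 4 (1 at each time at an unadjusted p under 0.05), and 1 rose at 4 h on day 11. That gene was EDN2, of the second endothelin ligand, which read 5.93 ± 0.29 at 0 h, 6.92 ± 0.84 at 4 h and 5.94 ± 0.21 at 24 h. It rose by 0.99 ± 0.24 (adjusted p = 0.0036) and then fell by 0.98 (adjusted p = 0.0027). With only the arrays of each comparison neither passed (adjusted p = 0.078 and 0.055), and the 4 h arrays, from 6.25 to 8.33, overlapped the highest 0 h array, 6.27. On day 4 its 4 h difference, 0.59, did not pass (adjusted p = 0.21). There the 4 h arrays, from 6.02 to 6.47, lay above all 0 h arrays, from 5.56 to 5.76. The interaction at 4 h did not pass either (0.40, adjusted p = 0.74). Thus EDN2 stood high at 4 h on day 11 and back near its 0 h level at 24 h, when EDN1 was still raised. EDN3, the third ligand, was dim and was called by limma in none of the 9 comparisons, nor had it an unadjusted p under 0.05 in any. FURIN, a protease that makes the first cut in the endothelin precursor, was 0.69 higher on day 11 at 0 h in the brighter of 2 probe sets (adjusted p = 0.0059), where the other differed by 0.34 (adjusted p = 0.057). MMP2, a gelatinase, rose by 0.51 at 24 h on day 11 (adjusted p = 0.011). PCSK7, another gene of the list, was 0.41 lower on day 11 at 0 h (adjusted p = 0.0041) and fell by 0.31 at 24 h on day 11 (adjusted p = 0.032). In each of these 2 comparisons 1 of the 7 genes was called higher and 1 lower. Of all genes, 44.5% were called between the days at 0 h, and 23.2% and 37.9% at 4 h and 24 h on day 11. The medians of the 7 genes, from -0.13 to 0.12 in the 4 comparisons with 0 h, lay near the -0.04 to 0.00 of all genes.

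Of 21 measured genes of nitric oxide synthesis (30 listed, NOS3 apart), 7 were higher and 5 lower on day 11 than on day 4 at 0 h. On day 11, 1 rose and 7 fell at 4 h, and 4 rose and 8 fell at 24 h, while on day 4, 1 fell at 4 h and 1 rose and 1 fell at 24 h. The shares of all genes called were 44.5% between the days at 0 h, 23.2% and 37.9% on day 11 and 5.28% and 7.76% on day 4. GCH1, which makes the first step of tetrahydrobiopterin, the cofactor of nitric oxide synthases, was called in the same direction as NOS3 in 4 of the 5 comparisons in which NOS3 was called. It was 0.93 ± 0.15 lower on day 11 at 0 h (adjusted p = 1.3e-05), fell by 0.61 at 24 h on day 4 (adjusted p = 0.014) and by 0.67 from 4 h to 24 h (adjusted p = 0.0022), and rose by 0.48 at 4 h on day 11 (adjusted p = 0.022). The fall from 0 h on day 4 did not pass without day 4, 24 h replicate 4 (adjusted p = 0.072) or with only the arrays of that comparison (adjusted p = 0.073). The rise on day 11 did not pass with array weights (adjusted p = 0.088), nor without day 11, 0 h replicates 1 or 3 or day 11, 4 h replicate 1 (adjusted p = 0.068, 0.056 and 0.062). From 4 h to 24 h on day 11, where NOS3 fell, GCH1 differed by -0.20 (adjusted p = 0.40), and its interaction at 24 h, 0.89, was called (adjusted p = 0.0020) where that of NOS3 was not. Its means ran 5.04, 5.10 and 4.43 on day 4 and 4.11, 4.59 and 4.39 on day 11. Over the 30 arrays its r with NOS3 was 0.67, the 155th highest of 9149 genes. GCH1 fell under the rule for named genes, but its pairing with NOS3 was chosen after its values were seen.

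NOSTRIN, which draws NOS3 from the cell membrane, moved the other way at 0 h, where it was 0.98 higher on day 11 (adjusted p = 0.00013). CAV1, the caveolin that holds NOS3 inactive, fell by 0.72 at 4 h (adjusted p = 0.0021) and by 1.03 at 24 h on day 11 (adjusted p = 1.3e-05). Its dimmer probe set differed by -0.79 and -1.02, which did not pass (adjusted p = 0.20 and 0.063). The inducible synthase NOS2 was 1.08 higher on day 11 at 0 h (adjusted p = 1.4e-06) and fell by 0.61 at 4 h (adjusted p = 0.0033), in the brightest of 4 probe sets. With the mean of the 4 the 4 h difference was -0.086 (adjusted p = 0.58). ASS1, which recycles citrulline toward arginine, was 1.20 higher on day 11 at 0 h (adjusted p = 0.00010) and fell there by 1.04 at 24 h (adjusted p = 0.00056). ASL, which completes that recycling, rose by 0.72 at 24 h on day 11 in 1 of its 2 probe sets, while the other differed by 0.08.

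**Figure D5:**
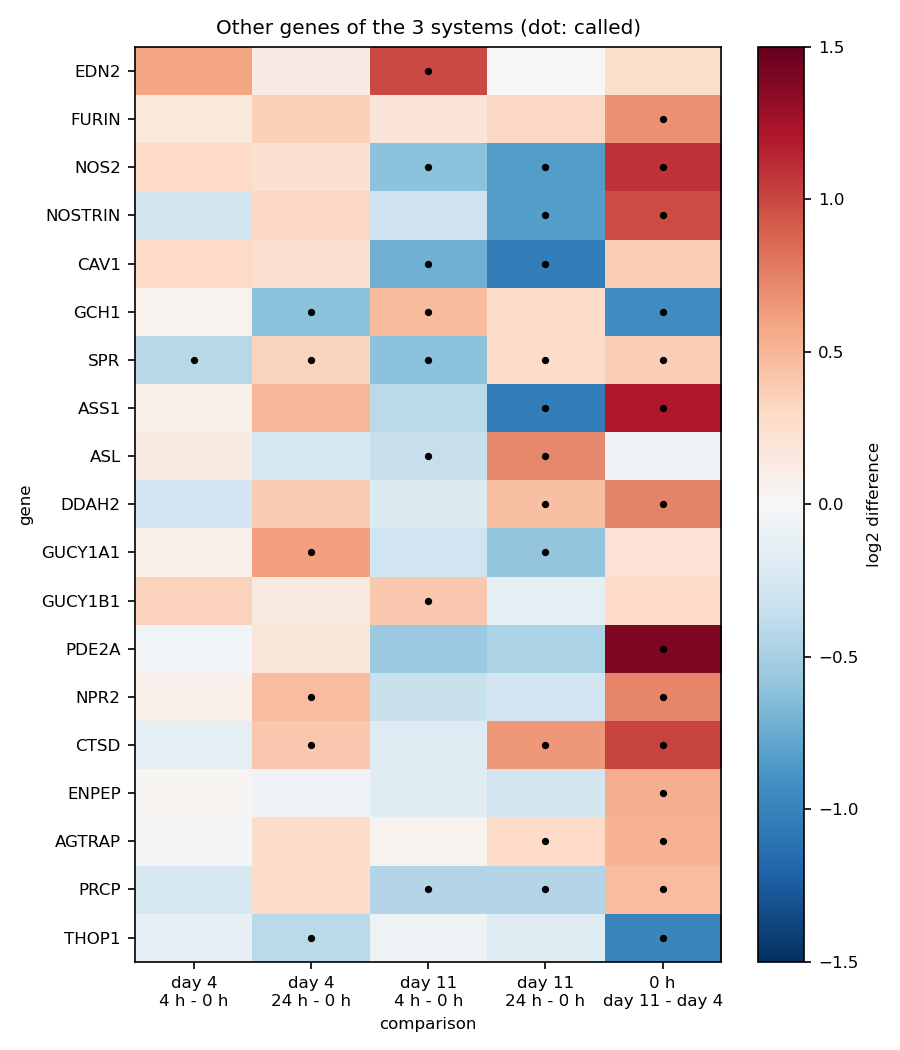
Log2 difference (colour, red higher and blue lower, scale from -1.5 to 1.5) of 19 genes (vertical axis) in 5 comparisons (horizontal axis). The genes are a selection of those named by rule from the endothelin, nitric oxide, cyclic GMP and renin-angiotensin lists. A dot marks an adjusted p under 0.05 in limma. GCH1 was lower in the 0 h comparison of the days (-0.93) and in day 4 glands at 24 h (-0.61).

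In the cyclic GMP signalling list, 11 genes were measured (18 listed), and 3 were higher on day 11 at 0 h (1 was lower at an unadjusted p under 0.05). The 3 were led by the phosphodiesterase PDE2A (1.40) and the natriuretic peptide receptor NPR2 (0.73). The guanylate cyclase subunit GUCY1A1, part of the nitric oxide receptor, fell by 0.59 at 24 h on day 11 (adjusted p = 0.016, and 0.055 or 0.068 without day 11, 0 h replicate 4 or day 11, 24 h replicate 1), with an interaction at 24 h of -1.21 (adjusted p = 0.00096). Its day 4 difference at 24 h, 0.62, passed narrowly (adjusted p = 0.047). It did not pass with quantile normalization (adjusted p = 0.065), with only the arrays of that comparison (adjusted p = 0.12), or without any one of 0 h replicates 2, 3 and 4 and 24 h replicates 1, 2, 3 and 4 (adjusted p from 0.055 to 0.16). The dimmer of its 2 probe sets was called in none of these 3 (0.30, -0.07 and -0.37, adjusted p = 0.20, 0.74 and 0.16). In the same list 2 rose at 4 h on day 11, and 2 rose and 1 fell at 24 h. Of all genes, 44.5% were called between the days at 0 h, and 23.2% and 37.9% at 4 h and 24 h on day 11. In these comparisons calls were thus no more frequent in the list than among all genes.

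In the renin-angiotensin list, 11 genes were measured of 19 (AGTR1 apart). The receptor AGTR2 and the precursor AGT were called by limma in none of the 9 comparisons. At an unadjusted p under 0.05 AGTR2 passed in 1 and AGT in 0. AGTR2 was dim, with group means of 3.61 to 4.17, and AGT ran from 5.37 to 5.70. At 0 h 4 of 11 were higher and 1 lower on day 11, among them the protease CTSD (1.01), which can cut angiotensinogen, the aminopeptidase ENPEP (0.54) and AGTRAP (0.52), a protein that binds AGTR1 and promotes its uptake, while the peptidase THOP1 was lower (-0.98). At 4 h on day 11, when AGTR1 had fallen, 2 of 11 fell, PRCP by 0.44 and PREP by 0.25. The PREP fall did not pass without day 11, 0 h replicate 5 or day 11, 4 h replicate 1 (adjusted p = 0.067 and 0.070). At 24 h, 3 rose and 1 fell, with CTSD up by 0.64 and PRCP down by 0.43. Of all genes, 44.5% were called between the days at 0 h, and 23.2% and 37.9% at 4 h and 24 h on day 11. These counts therefore do not set the list apart.

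Other vasoactive systems had 21 genes measured of 30. The apelin receptor APLNR fell by 1.66 at 4 h and by 2.01 at 24 h on day 11 (adjusted p = 8.0e-06 and 1.1e-07), beside the falls of AGTR1 by 1.07 and 1.73. The vasodilator adrenomedullin, ADM, rose by 1.47 at 24 h on day 11 (adjusted p = 2.9e-05), while RAMP3, a partner of its receptor, rose by 0.70 at 4 h (adjusted p = 3.0e-05) and fell by 1.17 at 24 h (adjusted p = 1.7e-09). The protease receptor F2RL1 fell by 1.79 at 24 h on day 11 (adjusted p = 0.0023). Its 4 h differences of 1.55 on day 4 (adjusted p = 0.042) and 1.40 on day 11 (adjusted p = 0.026) did not pass when some single arrays were left out. On day 4 these were 0 h replicates 2, 3, 4 and 5 and 4 h replicates 1, 2, 3 and 5 (adjusted p from 0.059 to 0.15). On day 11 they were 0 h replicates 2 and 5 and 4 h replicates 3, 4 and 5 (adjusted p from 0.055 to 0.11). In the 21 genes 4 rose and 1 fell at 4 h and 3 rose and 4 fell at 24 h on day 11, and 1 rose at each time on day 4. The shares of all genes called were 23.2% and 37.9% on day 11 and 5.28% and 7.76% on day 4, so these counts do not set the list apart.

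Endothelin and angiotensin receptors signal through Gq and calcium, and 19 of 30 genes of that list were measured. On day 11, 3 rose and 2 fell at 4 h, and 5 rose and 7 fell at 24 h, against 2 that rose at each time on day 4. Of all genes 23.2% and 37.9% were called on day 11 at these times, against 5.28% and 7.76% on day 4, so that difference between the days is not particular to the list. RGS16, which shortens Gq signals, rose by 1.41 and 1.25 at 4 h and 24 h on day 11 in the brightest of its 3 probe sets, with 2 of the 3 called at 4 h and 1 at 24 h. The 4 h call was lost narrowly with only the arrays of that comparison (adjusted p = 0.051). At 4 h on day 4 the difference of 1.20 (adjusted p = 0.040) did not pass when any array but replicate 4 of the 4 h group was left out (adjusted p from 0.055 to 0.15). The kinase PRKCD, an isoform of protein kinase C, rose by 1.27 and 1.10 at 4 h and 24 h on day 11 in 1 of its 2 probe sets. Its difference of 0.65 at 4 h on day 4 (adjusted p = 0.017) did not pass without day 4, 0 h replicate 5 or day 4, 4 h replicate 1 (adjusted p = 0.068 and 0.084). The inositol trisphosphate receptor ITPR3 (-0.97) and the receptor kinase GRK5 (-1.16) fell at 24 h on day 11. ITPR1 was 1.29 higher on day 11 at 0 h and differed by 1.02 at 24 h on day 4 (adjusted p = 0.0020, and 0.051 with only the arrays of that comparison) in the brightest of its 5 probe sets. No other of them was called in either comparison. The dimmest, with a mean of 3.72 over the 30 arrays, rose at 4 h by 1.89 on day 4 and by 1.74 on day 11 (limma, adjusted p = 0.00019 and 9.8e-05). From 4 h to 24 h on day 4 the dimmest fell by 1.88 (adjusted p = 6.7e-05), where the brightest rose by 1.06 (adjusted p = 0.00014). The list's median was -0.17 at both times on day 11, and 0.07 and 0.01 on day 4, where the medians of all genes were between -0.04 and 0.00.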

How the data were processed

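Per the submitters' processing notes, the authors summarised each array with RMA, which gives log2 values. The version, and which arrays were processed together, are not given in the sources used here. They were used as deposited, spanning 1.80 to 14.35, and the median of an array was 6.01 to 6.16. Of 24128 probe sets, 112 control probe sets were left out. The platform annotation gave 13292 of the other 24016 exactly 1 gene symbol, standing for 9155 genes, and a gene was represented by its brightest probe set (mean of all 30 arrays).

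The model, fitted to all 30 arrays with limma 3.58.1 (R 4.3.3), had 6 group means, no covariate and 24 residual degrees of freedom. There were 9 comparisons: 4 h and 24 h against 0 h and 24 h against 4 h on each day, day 11 against day 4 at 0 h, and the interactions at 4 h and 24 h (the change on day 11 minus that on day 4). p-values were adjusted by the Benjamini-Hochberg method over 24016 probe sets, with calls at 0.05. The fit was tested on simulated data. Marker-relative levels were compared by exact two-sided permutation tests, and deviations from group means by 100000 permutations within groups.

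The 6 genes, 6 pathway lists and the marker lists were chosen with earlier results of these data known. Named genes are the 6 members and, per list and comparison, up to 3 called genes with the largest rise and 3 with the largest fall. The text gives a selection of these. The 3 most alike genes per member were ranked by Pearson correlation. Alternatives were quantile normalization, array medians subtracted, leaving out the dimmest 30% of probe sets, array weights, robust variance moderation, replicate number as a block, only the arrays of a comparison, and leaving out each array. Each heifer was in 1 group, and the deviations of same-numbered arrays correlated above 0.1 in 24 of 75 pairs (r from -0.20 to 0.26, median 0.05), so the numbers were not taken as pairs.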

Additional observations from a re-analysis of the deposited data

Results flagged for a closer look

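The responses at 24 h differed between the days for 4 genes, by the interaction term of the limma fit. It was 2.04 for EDN1 (adjusted p = 0.00074), 0.61 for EDNRB (adjusted p = 0.00080) and -2.09 for AGTR1 (adjusted p = 9.9e-05). For ECE1 it was -0.68, -0.62 and -0.56 in its 3 probe sets (adjusted p = 0.0058, 0.011 and 0.023).

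Single arrays stood apart in 3 of the 48 sets of 5 values examined, where chance gives about 1 in 20. The brightest ECE1 probe set read 9.78 in day 4, 24 h replicate 4, where the next array read 9.39. The dimmest ECE1 probe set read 6.96 in day 11, 4 h replicate 1, the array with the unusual EF1A control probe sets, where the next read 7.58. AGTR1 read 5.88 in day 11, 24 h replicate 1, where the next read 6.63.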

How the results depend on the processing

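Of 1164 alternative values for the 72 differences of the members' probe sets, 1132 kept their direction and their side of the threshold, 9 lost it, 10 gained it and 13 changed sign. All that changed sign were differences that had not passed the test. With array weights 1981 probe sets were called at 4 h and 2356 at 24 h on day 4, against 1018 and 1240. With only the arrays of the comparison, 147 were called at 24 h on day 4 and, against 4409, 2520 at 4 h on day 11. Leaving out single arrays gave 608 to 1061 at 4 h and 357 to 2071 at 24 h on day 4, and 157 to 356 for the interaction at 4 h, against 264. On day 4 the highest 24 h count came without replicate 1 of the 24 h group and the lowest without its replicate 4. The members called at 24 h on day 4 went from 1 to 0 with only the arrays of the comparison, and ran from 0 to 1 with single arrays left out. For the interaction at 4 h they went from 0 to 1 (AGTR1) with the replicate block and with only the arrays of the comparison. The block also brought AGTR1 from 4 h to 24 h on day 11 past the threshold (-0.66, adjusted p = 0.026) and changed no other member's call. That AGTR1 step also passed with quantile normalization (adjusted p = 0.049) and with only the arrays of the comparison (adjusted p = 0.040). Of the 30 arrays, 13 correlated best, after group means were removed, with an array of the same number, a hint from the data and not from the design.

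Differences at 4 h on day 4 changed sign for EDNRB with array medians subtracted (-0.013) and with array weights (-0.027). With single arrays left out they ran from -0.032 to 0.057 for EDNRB, from -0.031 to 0.24 for EDNRA and from -0.033 to 0.22 for NOS3. In the same way EDNRB at 4 h on day 11 ran from -0.015 to 0.12 and in the interaction at 4 h from -0.031 to 0.10. NOS3 at 24 h on day 11 ran from -0.25 to 0.0071, AGTR1 from 4 h to 24 h on day 4 from -0.077 to 0.33, and EDN1 between the days at 0 h from -0.24 to 0.011. The 0 h difference of the second ECE1 probe set did not pass with only the arrays of the comparison (adjusted p = 0.073), and that of the dimmest at 24 h on day 11 passed under 4 settings (adjusted p from 0.042 to 0.050). AGTR1 minus the steroidogenic markers at 24 h on day 11 was 0.19 with the median of the list, a setting chosen, like the other 2 for marker-relative levels, after seeing the data. Leaving out the dimmest 30% removed EDNRB. Of 2061 alternative values for 104 called differences of the list genes named (PCSK7 apart), read gene by gene after seeing the data, 1903 kept the call, 156 lost it and 2 changed sign. Both that changed sign were of ITPR1 with the mean of its probe sets, at 24 h on day 11 (0.029) and from 4 h to 24 h on day 4 (-0.19). The cause of these shifts was not tested. The deposited values hold no measure of signal over background, which limits what can be said of EDNRB.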
